A study of Mus musculus with 22 samples.

Results

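A set of 8 genes that govern how much cholesterol a cell makes, moves and exports were followed in mouse lung epithelial cells exposed to carbon nanotubes. They are the transcription factor genes Srebf1 and Srebf2, the escort protein gene Scap, the retention protein genes Insig1 and Insig2, the sterol transfer protein gene Stard4, and the export pump genes Abca1 and Abcg1. Members were the array probes whose accession belongs to one of these 8 symbols, out of 20018 named genes on the array. Srebf2, Insig2 and Stard4 each had 2 probes and the other members had 1, so a gene was given by its brightest probe and any other probe was given beside it.

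FE1 cells are immortal lung epithelial cells of MutaMouse origin, and Mitsui7 is a preparation of multi-walled carbon nanotubes. All cells were seeded a day before exposure, kept in the same serum-containing medium with epidermal growth factor and collected after 24 h. The groups were the unexposed control (0 µg/ml, 5 arrays), the low dose (12.5 µg/ml, 6 arrays), the medium dose (25 µg/ml, 5 arrays) and the high dose (100 µg/ml, 6 arrays). On each array Cy5 marked the sample and Cy3 a reference pool of RNA from mouse cell lines, so that a level is the log2 ratio of sample to pool and a change is a difference of such ratios between groups. The labels describe repeated exposures of 1 cell line on several days without tying an array to a day, so the p-values measure the spread between these samples, which may be partly technical. The paper reports fewer separate exposure experiments than there are arrays in a group, so arrays of a group may share an experiment and are not all independent.

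SREBP transcription factors are made as membrane proteins of the endoplasmic reticulum, where Scap binds them and, when sterol is low, carries them to the Golgi for cleavage into an active form. When sterol is high, Insig proteins hold Scap back, and Insig1 is itself an SREBP target, so its mRNA rises and falls with SREBP activity. On the other side, oxysterols activate the nuclear receptors LXR, which switch on Abca1 and Abcg1, and these pumps pass cholesterol to lipoprotein particles outside the cell.

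Promoters are shown for 1 gene of each kind, Insig1 from the SREBP side and Abca1 from the export side, as the 250 bases before the start site. The sequences come from RefSeq on GRCm38.p6, Insig1 at chr5:28071162-28071411 on the + strand and Abca1 at chr4:53159896-53160145 on the - strand, with matches to the searched motifs in capitals.
Insig1: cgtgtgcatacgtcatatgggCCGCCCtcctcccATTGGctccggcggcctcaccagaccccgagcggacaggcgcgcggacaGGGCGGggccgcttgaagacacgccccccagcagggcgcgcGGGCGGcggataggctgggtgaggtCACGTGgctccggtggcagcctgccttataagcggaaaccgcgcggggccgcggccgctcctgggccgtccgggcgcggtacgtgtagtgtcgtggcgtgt
Abca1: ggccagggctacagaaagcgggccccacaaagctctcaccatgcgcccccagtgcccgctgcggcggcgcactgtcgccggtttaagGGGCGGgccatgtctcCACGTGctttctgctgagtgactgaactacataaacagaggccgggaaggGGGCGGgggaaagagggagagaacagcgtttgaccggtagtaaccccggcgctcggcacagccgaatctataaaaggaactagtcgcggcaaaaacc
The letters searched on both strands were CACGTG (E-box, a site of SREBP and other factors), CCAAT (the NF-Y box), GGGCGG (the GC box), TCACNCCAC (the core of a sterol response element) and AGGTCA repeated after 4 bases with at most 1 mismatch in each copy (DR4, the LXR type of element). The Insig1 stretch held 1 E-box, 1 CCAAT and 3 GC boxes, and the Abca1 stretch held 1 E-box and 2 GC boxes. Of the 32851 promoters in the table, 7.15% held the E-box, 37.4% CCAAT, 35.7% the GC box, 1.24% the sterol response core and 1.75% the DR4 element in the 300 bases from 250 before to 50 after the start. Neither the sterol response core, searched without mismatch, nor the DR4 letters were found in the 11 promoters listed for 6 of the members. A site that departs further from these letters, or lies outside the 300 bases, would be missed. The search therefore does not show that a working site is absent. Stard4 and Abcg1 were not searched.

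Detection meant a Cy5 signal over a limit set from the negative control spots of the array, and between 23688 and 39139 of the 55681 probes were detected per array. The arrays lay on 5 slides, and slide was a term of the model. Low dose replicate 2 was closest to the control arrays, low dose replicate 1 to the medium dose, medium dose replicate 2 to the low dose, medium dose replicates 1 and 5 to the high dose, and high dose replicate 6 to the medium dose, as judged by correlation with the group means. Low dose replicate 1 and medium dose replicate 2 correlated negatively with the mean of the other arrays of their groups (r = -0.367 and -0.359), and results without both are given below. Low dose replicate 2 lay near 0 with its own group (r = -0.0033) and at 0.203 with the control. It was not among the arrays left out jointly. Of the epithelial markers, Krt8 and Krt18 were detected on 22 arrays and Krt19 on 21, whereas Epcam was detected on 10 and Cdh1, the defining adhesion protein of epithelia, on 0. The fibroblast markers Col1a1, Col3a1, Pdgfra and Vim were detected on 22 arrays.

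The 2 members that passed the test, Insig1 and Stard4, were both lower after exposure. To be called, a probe had to reach an adjusted p of 0.05 or lower (limma, Benjamini-Hochberg over all probes) and 1.5-fold or more, and be detected on 4 or more arrays of either group. Abcg1 was detected on no array, which left 7 members that could be called. The only export gene among them, Abca1, lay around the detection limit. The calls therefore do not compare the SREBP side with the export side. At the low dose 0 of the 7 were called, and 3 of them (Insig1, Insig2 and Stard4) had an unadjusted p under 0.05. At the medium dose 1 was called lower, Insig1, and at the high dose 2 were called lower, Insig1 and Stard4; 0 were called higher at any dose. Of all detected probes, 1.96% were called lower and 1.35% higher at the low dose, 2.97% and 2.72% at the medium dose, and 4.24% and 3.34% at the high dose. The median log2 change of the 7 detected members was -0.25, -0.18 and -0.36 from the low to the high dose, where that of all detected probes was 0.0059, 0.0058 and 0.011. Of the 7, 6 lay below control at the low dose and 7 at the medium and high doses, where 48.8%, 48.8% and 48% of all detected probes did. Without low dose replicate 1 and medium dose replicate 2 the same members were called at each dose.

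**Figure D1:**
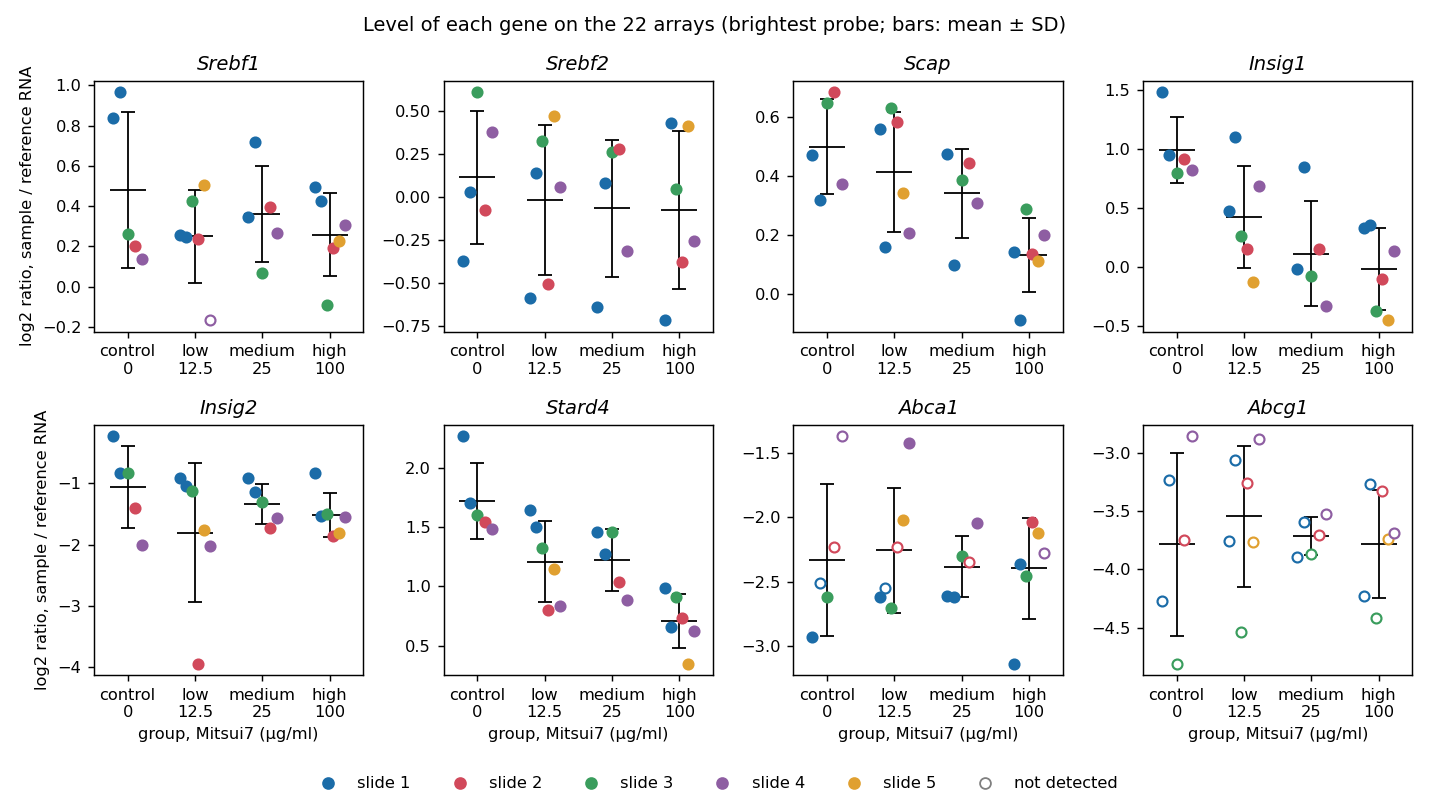
Log2 ratio of sample to reference RNA (y axis) of each of the 8 genes on each of the 22 arrays, by group (x axis, Mitsui7 in µg/ml); points are arrays coloured by slide, open where the gene was not detected, and black bars are the mean ± SD of the group. All 6 high dose arrays lay below all 5 control arrays for Insig1, Stard4 and Scap, while the groups overlapped for the other genes and Abcg1 was detected on no array. The share of all probes with such a separation is not given.

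Insig1 encodes the retention protein that SREBP itself induces. In control cells its log2 ratio was 1.48, 0.95, 0.80, 0.92 and 0.83 in replicates 1 to 5. At the low dose the 6 arrays ran from -0.13 to 1.10 with a median of 0.37. At the medium dose the 5 arrays read -0.02, 0.85, -0.07, 0.16 and -0.33. The medium dose values lay below every control value on 4 of 5 arrays, the exception being medium dose replicate 2. At the high dose the range was -0.45 to 0.36 with a median of 0.02, and 6 of 6 arrays lay below every control array. Such counts, here and for the genes below, describe the arrays only, since the share of all probes that separate in this way is not given. From control to high dose the group means were 0.996 ± 0.28 (SD, n = 5), 0.43 ± 0.43 (SD, n = 6), 0.12 ± 0.44 (SD, n = 5) and -0.02 ± 0.35 (SD, n = 6). The change in Insig1 was -0.88 ± 0.16 (SE) at the medium dose, a 1.84-fold decrease (limma, adjusted p = 0.00155). At the high dose it was -0.91 ± 0.16 (SE), a 1.88-fold decrease (limma, adjusted p = 0.000527). The low dose change of -0.47 ± 0.16 did not pass (limma, adjusted p = 0.122), but it did when the replicate number replaced slide as the block, at -0.61 with an adjusted p of 0.00916 (range over its alternatives 0.00916 to 0.289). Control replicate 1 was the highest of its group, and without it the high dose change was -0.85 (limma, adjusted p = 0.00236).

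Insig2 encodes the other retention protein, which does not depend on SREBP for its expression. Its control ratios were -0.23, -0.83, -0.84, -1.41 and -2.01. The low dose arrays ran from -3.94 to -0.92 with a median of -1.44, the medium dose arrays read -0.92, -1.15, -1.31, -1.73 and -1.56, and the high dose arrays ran from -1.87 to -0.84 with a median of -1.54. The control range thus held all medium and high dose values, and the changes of -0.72 ± 0.29, -0.27 ± 0.29 and -0.43 ± 0.29 (SE) from the low to the high dose did not pass (limma, adjusted p = 0.231, 0.773 and 0.518). The low dose change rested in part on replicate 4 at -3.94, without which it was -0.32 (limma, adjusted p = 0.491). The other Insig2 probe gave -0.34, -0.41 and -0.47, with 0 calls (limma, adjusted p = 0.553, 0.425 and 0.262).

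Scap encodes the escort and sterol sensor of the SREBP proteins and was detected on all arrays. Its control ratios were 0.47, 0.32, 0.65, 0.68 and 0.37, and those at the medium dose were 0.48, 0.10, 0.38, 0.44 and 0.31. The low dose arrays ran from 0.16 to 0.63 with a median of 0.45, and the high dose arrays from -0.09 to 0.29 with a median of 0.14. All 6 high dose arrays lay below the lowest control array, a count that has no share of all probes beside it. The change at the high dose was -0.36 ± 0.09 (SE) with an adjusted p of 0.0182 (limma), which passed the p threshold but, at 1.28-fold, not the fold threshold. With each array scaled by its median alone the change was -0.40 and its adjusted p 0.79, and with slide 1 left out -0.36 and 0.0886 (range over all alternatives 0.00316 to 0.79). At the low and medium doses Scap changed by -0.08 and -0.16 (95% intervals -0.27 to 0.12 and -0.36 to 0.04; limma, adjusted p = 0.802 and 0.498).

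The SREBP genes themselves did not pass at any dose. Srebf1, whose products drive fatty acid genes above all, had control ratios of 0.84, 0.96, 0.26, 0.20 and 0.14. At the low dose they ran from -0.17 to 0.50 with a median of 0.25, and the medium dose ratios were 0.35, 0.72, 0.07, 0.40 and 0.27. At the high dose the arrays ran from -0.09 to 0.50 with a median of 0.27, and each exposed group overlapped the control. Its changes were -0.25, -0.12 and -0.24 from the low to the high dose, with 95% intervals of -0.52 to 0.02, -0.39 to 0.15 and -0.51 to 0.02 (limma, adjusted p = 0.399, 0.777 and 0.35). The interval at each dose left out a 1.5-fold decrease. The 2 control arrays on slide 1 were the highest of all Srebf1 values, and with slide 1 left out the medium dose change was 0.04. On the authors' processed values the low dose change was -0.43 (limma, adjusted p = 0.0828). The probe was dim, and on low dose replicate 6 it was not detected. A ratio measured close to background can understate a change, so the intervals do not exclude a 1.5-fold decrease of the RNA.

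Srebf2 encodes the SREBP that drives cholesterol genes above all. Its control ratios were -0.37, 0.03, 0.61, -0.08 and 0.38, and the medium dose ratios were -0.64, 0.08, 0.26, 0.28 and -0.31. The low dose arrays ran from -0.59 to 0.47 with a median of 0.10, and the high dose arrays from -0.72 to 0.43 with a median of -0.10. All groups overlapped. The changes were -0.23, -0.18 and -0.29, with 95% intervals of -0.65 to 0.19, -0.61 to 0.25 and -0.71 to 0.13 (limma, adjusted p = 0.698, 0.792 and 0.55). Decreases of up to 1.5-fold lie inside these intervals. The other Srebf2 probe gave 0.03, -0.58 and -0.28, and 0 of these were called (limma, adjusted p = 0.977, 0.341 and 0.73).

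Stard4 encodes a soluble protein that moves cholesterol between membranes, and its gene is a known SREBP target. The control ratios were 2.27, 1.70, 1.60, 1.54 and 1.48. The low dose arrays ran from 0.80 to 1.64 with a median of 1.24. The medium dose ratios were 1.46, 1.27, 1.46, 1.03 and 0.88. All 5 medium dose arrays and 4 of the 6 low dose arrays lay below every control array. At the high dose the range was 0.35 to 0.98 with a median of 0.70, and 6 of 6 arrays lay below every control array. The means were 1.72 ± 0.32 (SD, n = 5), 1.21 ± 0.34 (SD, n = 6), 1.22 ± 0.26 (SD, n = 5) and 0.71 ± 0.23 (SD, n = 6) from control to high dose. The high dose change was -0.97 ± 0.12 (SE), a 1.96-fold decrease (limma, adjusted p = 1.73e-05). The low and medium dose changes of -0.47 and -0.50 passed the p threshold (limma, adjusted p = 0.0337 and 0.0189) but were 1.38-fold and 1.41-fold, and so were not called. Control replicate 1 was the highest of its group, and without it the changes were -0.37, -0.40 and -0.87 (limma, adjusted p = 0.105, 0.0604 and 5.94e-05). Leaving out low dose replicate 4 gave -0.40 at the low dose (limma, adjusted p = 0.116).

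The other, dimmer Stard4 probe differed from the brighter one at the lower doses. Its control ratios were 1.44, 1.06, 1.44, 1.14 and 1.07, and its medium dose ratios were 1.10, 1.14, 1.19, 1.52 and 0.83. The low dose arrays ran from 0.90 to 1.53 with a median of 1.26, and the high dose arrays from 0.55 to 0.88 with a median of 0.66. The low and medium doses therefore overlapped the control, at changes of 0.02 and -0.07 (limma, adjusted p = 0.965 and 0.873), whereas all 6 high dose arrays lay below every control array. The high dose change of -0.54 ± 0.12 (SE) passed the p threshold (limma, adjusted p = 0.00413) at 1.45-fold, below the fold threshold, so that by this probe Stard4 would not be called.

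**Figure D2:**
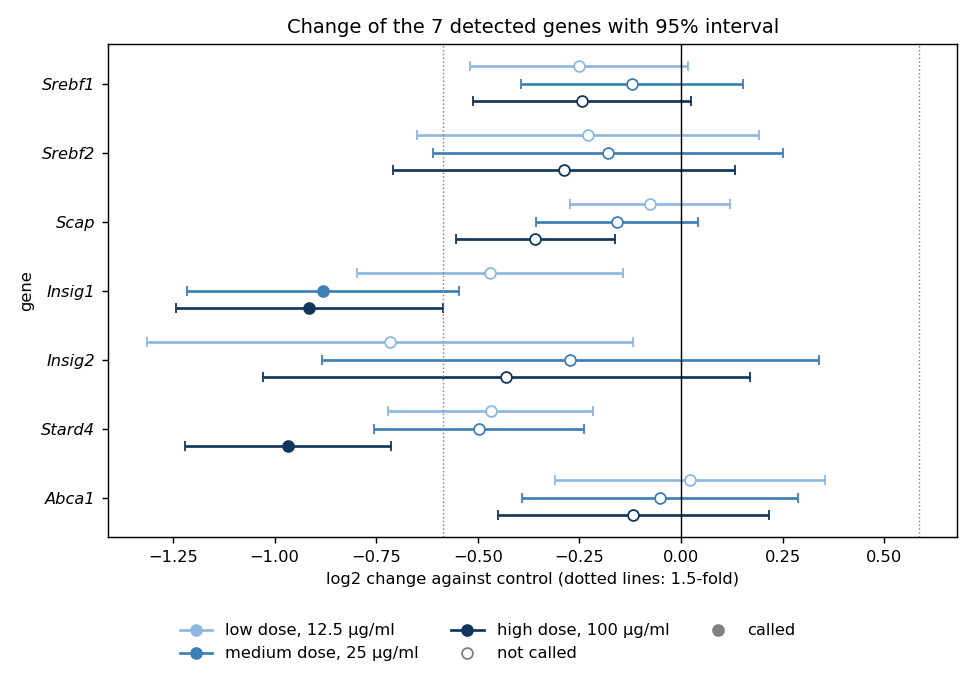
Log2 change against control (x axis) of the 7 detected genes (y axis) at the low, medium and high dose; points are the estimates of the model, bars their 95% intervals, filled points are called and dotted lines mark 1.5-fold. Insig1 was called at the medium and high dose (-0.88 and -0.91) and Stard4 at the high dose (-0.97), and the intervals of Srebf1, Srebf2 and Abca1 held 0 at every dose.

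Abca1 encodes the pump that loads cholesterol onto lipid-poor apolipoprotein, and it is a leading LXR target. It was detected on 2 of 5 control, 4 of 6 low dose, 4 of 5 medium dose and 5 of 6 high dose arrays, with a Cy5 signal of 71.5 to 166 against detection limits of 74.3 to 119. The control ratios were -2.92, -2.51, -2.62, -2.23 and -1.37, and the medium dose ratios -2.61, -2.61, -2.30, -2.34 and -2.04. The low dose arrays ran from -2.70 to -1.42 with a median of -2.39, and the high dose arrays from -3.13 to -2.04 with a median of -2.32. All groups overlapped. The changes were 0.02, -0.05 and -0.12, with 95% intervals of -0.31 to 0.36, -0.39 to 0.29 and -0.45 to 0.22 (limma, adjusted p = 0.973, 0.944 and 0.825), and their sign turned under several alternatives, among them scaling by the median at the low dose (-0.08). Changes of 1.5-fold in either direction lie outside these intervals, but a ratio measured this close to background can understate a change.

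Abcg1 encodes a pump that passes cholesterol to mature lipoprotein particles. Its Cy5 signal was 62.0 to 78.5 over all arrays and fell below the detection limit on each of them, and the scanner marked it well above background on 0 of 22. It therefore has only an upper bound in every group, and no fold is given. In the plot of signal against the detection limit, Abca1 lies around the line and Abcg1 under it while Insig1 and Stard4 lie above it on every array.

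**Figure D3:**
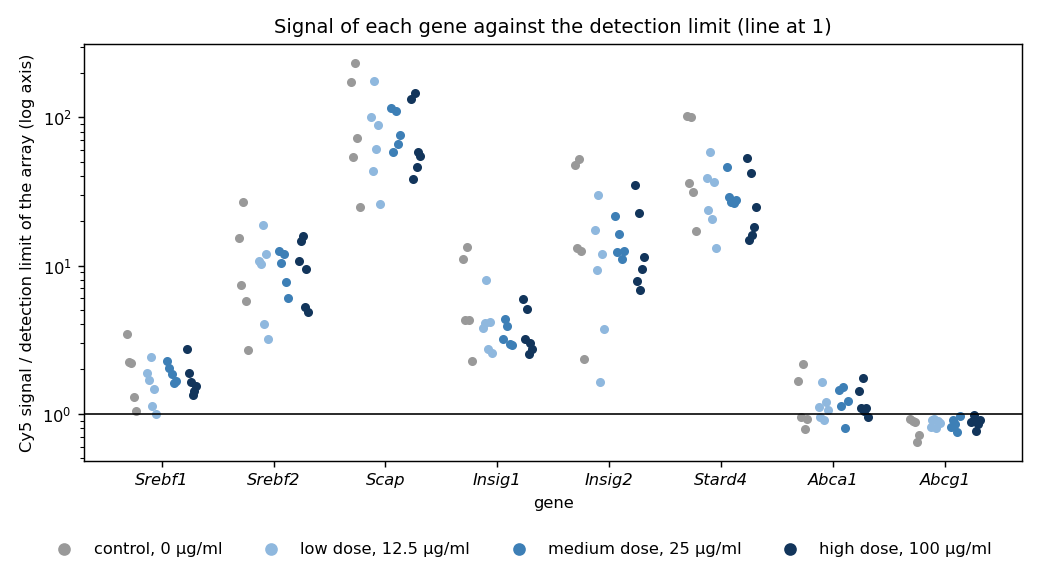
Cy5 signal of each gene divided by the detection limit of its array (y axis, log scale) for the 8 genes (x axis), with 1 point per array coloured by group and a line at 1. Abcg1 lies under the line on all arrays and Abca1 around it, at 62.0 to 78.5 and 71.5 to 166 in signal units, and levels of different probes are not compared.

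Exposed arrays were also set against the controls of their own slide, which was possible on 4 slides and for 5 arrays per dose, since slide 5 held no control. Insig1 was lower than the controls of its slide on 5 of 5 arrays at each dose, with a median difference of -0.53, -0.87 and -0.89 log2 from the low to the high dose. Stard4, by its brighter probe, was lower on 5 of 5 arrays at each dose, with medians of -0.49, -0.52 and -0.86. Its other probe, at 0.02 and -0.07 at the low and medium doses in the model, was not compared within slides. The share of all probes lower on 5 of 5 arrays is not given. Scap was lower on 4, 4 and 5 of 5 arrays, with medians of -0.10, -0.24 and -0.36. Abca1 was lower on 2 and higher on 3 of 5 arrays at every dose. Insig1 and Stard4 had the lowest medians at the high dose within slides and the largest decreases in the pooled model. Both views use the same arrays, and the pooled model already holds slide, so the within-slide values are not separate support. On slides 2, 3 and 4 they rest on 1 control each.

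**Figure D4:**
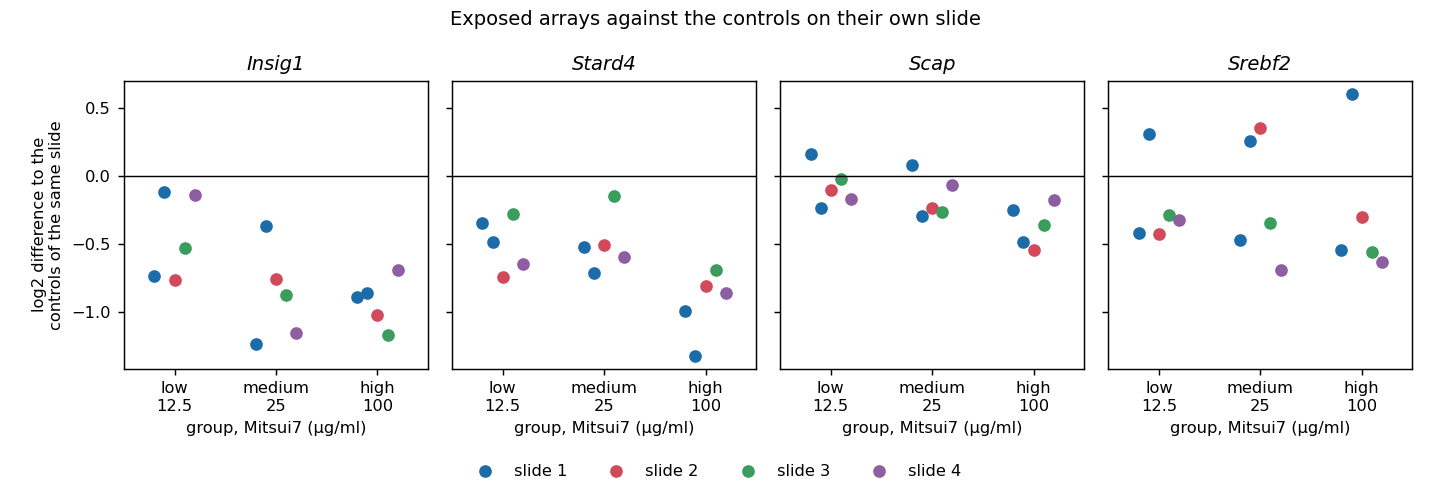
Log2 difference of each exposed array to the controls on the same slide (y axis) for Insig1, Stard4, Scap and Srebf2 by dose (x axis, Mitsui7 in µg/ml); 1 point per array, coloured by slide. At the high dose Insig1, Stard4 and Scap lie below 0 on all 5 arrays, from -1.17 to -0.69, -1.32 to -0.70 and -0.55 to -0.18, while Srebf2 lies on both sides of 0.

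Doses were compared with each other in the same model, and 0 of the 7 detected members were called in any of the 3 comparisons. Of all detected probes, 0% were called between the medium and low dose, 0.26% between the high and low dose and 0% between the high and medium dose. Unadjusted p-values under 0.05 were found for 1 member between medium and low (Insig1), 3 between high and low (Scap, Insig1 and Stard4) and 2 between high and medium (Scap and Stard4). Stard4 was lower at the high than at the low dose by -0.50 ± 0.11 (SE) on the brighter probe (limma, adjusted p = 0.0676) and by -0.56 ± 0.11 on the other (limma, adjusted p = 0.028), at 1.41-fold and 1.47-fold. Insig1 differed by -0.44 ± 0.15 between the high and low dose (limma, adjusted p = 0.316) and by -0.03 ± 0.16 between the high and medium dose (limma, adjusted p = 1), so its order of doses was not resolved beyond the spread of the arrays.

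The genes around the members were grouped into lists by their role. Of 20 cholesterol synthesis genes, which SREBP drives, 5 were called lower at the low dose, 13 at the medium dose and 18 at the high dose, with 0 called higher and a median log2 change of -0.54, -0.77 and -1.01. The largest at the high dose were Tm7sf2 (-1.60 ± 0.11, SE), a sterol reductase, Mvd (-1.54 ± 0.25) of the mevalonate arm, Lss (-1.31 ± 0.25), which closes the sterol rings, and Nsdhl (-1.24 ± 0.16), a sterol dehydrogenase (limma, adjusted p from 1.2e-08 to 0.00122). Of 10 fatty acid synthesis genes 3, 6 and 6 were called lower from the low to the high dose, with medians of -0.48, -0.72 and -0.79. They were led at the high dose by the desaturase Scd2 (-1.58 ± 0.28), the acetyl-CoA synthetase Acss2 (-1.24 ± 0.11), the desaturase Scd1 (-1.09 ± 0.13) and the elongase Elovl6 (-0.97 ± 0.13) (limma, adjusted p from 5e-07 to 0.000697). With each array scaled by its median alone, 4, 5 and 12 of the 20 cholesterol synthesis genes and 2, 2 and 4 of the 10 fatty acid synthesis genes were called lower from the low to the high dose. The fatty acid count was 3 at the medium dose without the slide term, and 1 at the low and 3 at the medium dose on the authors' processed values. Elovl6 was not called at the high dose with scaling by the median (limma, adjusted p = 0.129) or without slide 1 (0.0949), nor was Scd2 without slide 1 (0.052). The medium dose cholesterol synthesis count of 13 was 6 without the slide term and 7 without slide 1. The low dose count of 5 was 2 in these fits and on the authors' processed values. With only that dose and control fitted it was 2, and the scanner software's log ratio gave 1. It was 2 without control replicate 2 or 3 or low dose replicate 1 or 4. It was 3 without control replicate 1 or 4, low dose replicate 5 or high dose replicate 5. At 2-fold the cholesterol synthesis counts were 0, 4 and 10, and the fatty acid counts 1, 2 and 3. Over all alternatives the cholesterol synthesis counts ran from 0 to 7, 4 to 15 and 10 to 19. The counts in the model with all arrays can be set against the 1.96%, 2.97% and 4.24% of all detected probes called lower from the low to the high dose.

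Genes that handle SREBP proteins were mostly within the spread of the arrays. Of 12 such genes, 0 were called at the low and medium doses and 1 at the high dose, Erlin1, which encodes a membrane protein of the endoplasmic reticulum that restrains SREBP and was higher by 0.73 ± 0.14 (SE; limma, adjusted p = 0.00176). It was not called after scaling by the median or on the authors' processed values, where its changes were 0.69 and 0.33 (limma, adjusted p = 0.279 and 0.441; range over its alternatives up to 0.441). Without control replicate 4 or low dose replicate 4, 1 gene of the list was called lower at the high dose. In the model with all arrays, 3.34% of all detected probes were called higher and 4.24% lower at that dose. A count of 1 is therefore not read as a trait of the list. The proteases that cleave SREBP in the Golgi were not called, Mbtps1 at -0.24, -0.22 and -0.20 and Mbtps2 at 0.22, 0.34 and 0.25 from the low to the high dose.

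On the LXR side, the receptor genes were not called, Nr1h2 at 0.0028, -0.19 and -0.07 and Nr1h3 at 0.10, -0.23 and -0.11 from the low to the high dose, and on the log ratio of the scanner software both were below 0 at the low dose (-0.07 and -0.34). Among all detected probes, 1.96%, 2.97% and 4.24% were called lower from the low to the high dose. Of the 12 genes of the LXR list 9 were detected, and 1, 1 and 2 of these were called lower, with 0 called higher. The called genes were Lpcat3, an enzyme that remodels phospholipids, at -0.71, -1.01 and -1.06 from the low to the high dose, and Mylip, a ubiquitin ligase that removes lipoprotein receptors, at -0.84 at the high dose (limma, adjusted p = 0.000115 and 0.000906 at the high dose). Mylip was not called with scaling by the median (-0.73, limma, adjusted p = 0.0553) or on the authors' processed values (-0.50, 0.0506), which left 1 gene of the list called at the high dose. The medium dose count was 2 without medium dose replicate 1, without medium dose replicate 2 and with the replicate block in place of slide. Without low dose replicate 1 Lpcat3 was -0.57 at the low dose, under 1.5-fold (limma, adjusted p = 0.0286). The list median was 0.01, -0.19 and -0.07. Of 7 genes of oxysterol synthesis and breakdown 4 were detected and 1 was called, Ch25h, which makes 25-hydroxycholesterol and was lower by -0.60 ± 0.11 at the high dose (limma, adjusted p = 0.000824). Its change fell under 1.5-fold without control replicate 1 (-0.54), high dose replicate 1 (-0.56) or high dose replicate 3 (-0.55), without slide 1 (-0.47), with normexp background correction (-0.56) and on the authors' processed values (-0.57). Beside the 4.24% of all detected probes called lower at the high dose, this 1 call is not read as a trait of the oxysterol list.

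From the low to the high dose, 1.35%, 2.72% and 3.34% of all detected probes were called higher and 1.96%, 2.97% and 4.24% lower. Of 19 genes of cholesterol uptake, transport and storage, 1 was called higher at each dose and 1 called lower at the medium and high doses. Such counts are too few to be read as a trait of the list. The gene called higher was Soat2, which esterifies cholesterol for storage, at 1.03, 1.10 and 1.23 (limma, adjusted p = 0.0214, 0.0115 and 0.00242). Its low dose call was lost without control replicate 1 or 4 or low dose replicate 1, 4 or 6 (0.85 to 0.999, limma, adjusted p from 0.0504 to 0.0801). The gene called lower was Scp2, a sterol carrier, at -0.78 and -0.97 at the medium and high doses (limma, adjusted p = 1.71e-05 and 4.15e-07). Scp2 was not called at the medium dose with scaling by the median (-0.69, limma, adjusted p = 0.32), and Soat2 was not called at the medium dose without slide 1 (0.92, 0.16). The count called lower was 1 at the low dose without control replicate 2 or 5 or low dose replicate 1. It was 2 at the medium dose without low dose replicate 1 or 4 or medium dose replicate 2. At the high dose it was 2 without control replicate 1, 4 or 5, low dose replicate 1, 2 or 4, or medium dose replicate 1 or 2. With the replicate block in place of slide it was 1, 2 and 2, with Scp2 called at the low dose (-0.62, limma, adjusted p = 5.28e-05). The list median was -0.08, -0.02 and -0.11, and in the model with all arrays the other genes of the list were not called at any dose.

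**Figure D5:**
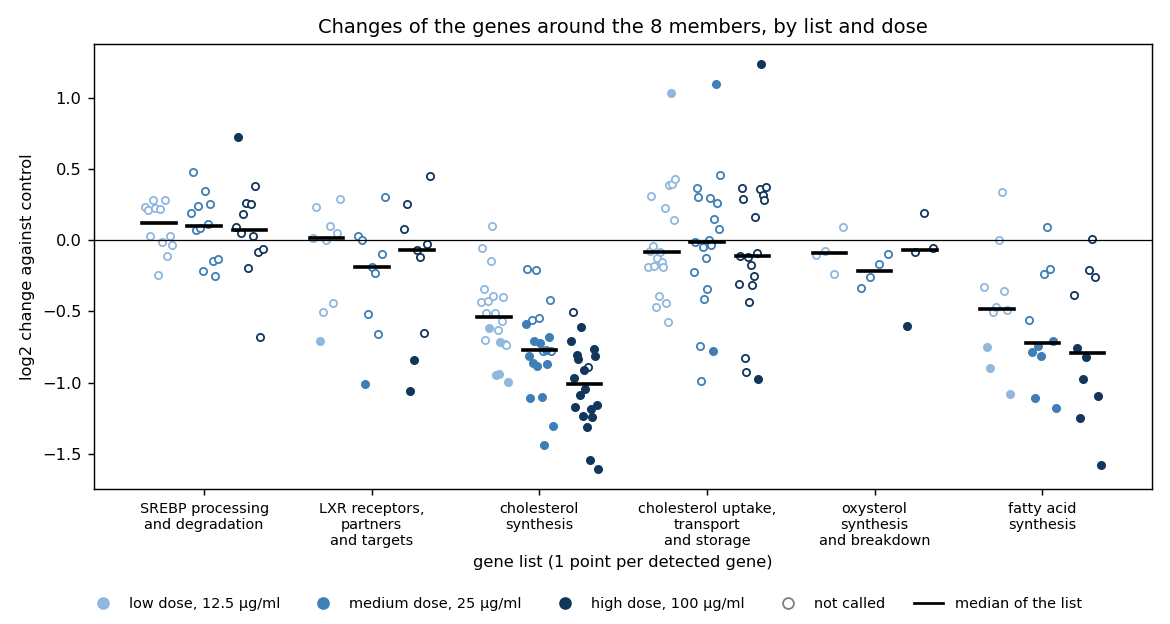
Log2 change against control (y axis) of the detected genes in 6 lists (x axis), with 1 point per gene and dose, filled where called, and a black line at the median of the list. The medians of the cholesterol synthesis and fatty acid synthesis lists lie below 0 at each dose, at -1.01 and -0.79 at the high dose. Some genes lie above 0 in the fatty acid list at each dose and in the cholesterol synthesis list at the low dose only. The medians of the other lists lie between -0.21 and 0.12.

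Most fibroblast markers and 1 alveolar marker, like Insig1 and Stard4, were called lower at the high dose, where 4.24% of all detected probes were. Of 4 fibroblast markers 3 were called lower at the high dose, Col1a1 by -1.34, Col3a1 by -1.70 and Pdgfra by -1.53, and the mean log2 ratio of the list ran from 0.11 to 0.47 over the control arrays and from -1.04 to -0.48 over the high dose arrays. The fibroblast marker Vim changed by 0.14 and was not called. Of 5 alveolar markers 1 was called lower, Hopx by -2.08, with a list mean of -0.11 to 0.25 over the control and -0.46 to -0.12 over the high dose arrays. The other alveolar markers were not called, Sftpc at 0.61, Sftpb at 0.10, Sftpd at 0.004 and Aqp5 at -0.37. This 1 call is therefore not read as a trait of the alveolar list. Of the 5 epithelial, 3 leukocyte and 3 endothelial markers 0 were called at the high dose. Among exposed arrays below that dose, the fibroblast list mean spanned -0.92 to 0.22 (low dose) and -0.86 to -0.42 (medium dose). All medium dose arrays thus lay below every control array for this list, which describes the arrays only, since the share of all probes that separate so is not given. The alveolar list mean spanned -0.49 to -0.11 (low dose) and -0.38 to 0.59 (medium dose). Calls of single markers are given for the high dose only. The paper ascribes both alveolar phenotypes to FE1 cells, so Hopx need not mark another cell type. The part of these markers in the members' changes was not tested, and in bulk RNA fewer cells of a type and less RNA per cell cannot be told apart.

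The genes whose slide-adjusted level followed each of 3 members most closely over the arrays were looked up among 15116 named probes detected in every group. For Insig1 they were Sv2a (Pearson r = 0.950), Lpcat3 (0.939) and Zfp467 (0.934) over 22 arrays. For Srebf1 they were Klhdc7b (0.741), Ms4a3 (0.737) and Pcyt1b (0.719) over 22 arrays. For Abca1 they were Cd72 (0.865, 22 arrays), Lyl1 (0.845, 20 arrays) and Myo1g (0.845, 21 arrays), with high dose changes of -0.09, -0.09 and 0.02. Abca1 lay around the detection limit, and it correlated at 0.831 with Abcg1, which was detected on no array. The genes most like Abca1 are therefore not read as expressed together with it. These correlations describe arrays that share their groups and their reference RNA. Insig1 and Stard4 correlated at 0.692 over the 22 arrays, and at 0.0432 once the group means were taken out as well.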

How the data were processed

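RNA of FE1 cells after 24 h with 0, 12.5, 25 or 100 µg/ml Mitsui7 was measured on 22 two-colour Agilent arrays, with sample in Cy5 and reference RNA in Cy3 and no dye swap. The deposited scanner files hold the Cy5 and Cy3 median signal intensity of each spot, extracted by the authors with Feature Extraction 10.7.3.1 at 3 µm per the file headers, and a log10 ratio of the scanner software. The deposited series table holds the authors' log2 ratios, whose normalization is not stated there. It served as an alternative only, as did the log10 ratio.

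Control spots and spots marked as non-uniform or as population outliers were left out, no background was subtracted, and log2 ratios were loess-normalised within each array and summarised as the median per probe. Probes were named through RefSeq accessions on GRCm38.p6 (26413 of 55681 probes, names only). Detection required a Cy5 signal over the 5% trimmed mean plus 3 trimmed SDs of 308 negative control spots. Group and slide were fitted over all 22 arrays with limma 3.58.1 in R 4.3.3, with Benjamini-Hochberg adjustment over all probes; limma stood in for the MAANOVA test of the study. The script was tested on simulated data. The number of arrays limits the precision.

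All 8 members were named, with Nr1h2, Nr1h3, Mbtps1, Mbtps2, up to 4 called genes per list with the largest high dose change, and the 3 genes most like Insig1, Srebf1 and Abca1. Members and lists were chosen with earlier results of these data known. Alternatives covered the slide term, the scaling, the background correction, the source of the ratio, the thresholds, other probes and single arrays. Arrays with the same replicate number in the labels deviated together (31 of 31 pairs with r over 0.1, from 0.161 to 0.849), and most of them share a slide.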

Additional observations from a re-analysis of the deposited data

Results flagged for a closer look

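In 4 of the 32 combinations of gene and group, 1 array stood apart from the others by Dixon's test, which chance alone gives in about 1 of 20 such groups. For Insig1, control replicate 1 had a log2 ratio of 1.48, and the next control array had 0.95. For Stard4, the same control array had 2.27, and the next had 1.70. For Insig2, low dose replicate 4 had -3.94 where the next lowest low dose array had -2.03, and high dose replicate 1 had -0.84 where the next highest high dose array had -1.51. Without control replicate 1 the high dose changes of Insig1 and Stard4 were -0.85 and -0.87, and both were still called (limma, adjusted p = 0.00236 and 5.94e-05).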

How the results depend on the processing

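At the 1.5-fold threshold Insig1 was called at the medium and high dose under 34 of 34 alternatives to the model, the arrays and the values (-1.01 to -0.76 and -1.08 to -0.85), and Stard4 at the high dose under 34 of 35, the exception being its other probe; at 2-fold neither was called. The count of members called, 0, 1 and 2 from the low to the high dose, was 1 at the low dose with the replicate block in place of slide (Insig1), which changed the call of no other member. It was 0 at the medium and 0 at the high dose with 2-fold in place of 1.5-fold, and 1 at the low (Stard4), 2 at the medium (Insig1 and Stard4) and 3 at the high dose (Scap, Insig1 and Stard4) with no fold threshold. Leaving out 1 array at a time gave 0 to 0, 1 to 1 and 2 to 2 members, and 784 to 1183, 1354 to 2052 and 2160 to 2530 probes. Of all probes, 1017, 1692 and 2448 were called from the low to the high dose. The counts were 441, 625 and 1314 with median centring, 266, 448 and 714 at 2-fold and 1933, 2974 and 4498 with no fold threshold, and 1126 at the medium dose without the slide term and 673 at the low dose with only that dose and control in the fit. Median centring lowered the share of calls that were higher from 40.8%, 47.8% and 44% to 14.7%, 38.1% and 29.1%, with a median shift of all probes of -0.121 at the low dose, and the scanner software's log ratio raised it to 46.7%, 56.1% and 50.8%.

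The sign turned for the following changes, of which 0 were called. At the low dose Abca1 was -0.022 with the replicate block, -0.084 with median centring, -0.057 with normexp, -0.50 on the scanner software's log ratio and -0.050 without slide 1, and at the medium dose it was 0.10 on the authors' series values. Without slide 1 Srebf1 was 0.044 at the medium dose and Ch25h 0.022 at the low dose. On the other probes Srebf2 was 0.035 and Stard4 0.021 at the low dose. Nr1h2 at the low dose was -0.15 with median centring, -0.0033 with normexp and -0.069 on the scanner software's log ratio, where it was 0.0016 at the high dose. Nr1h3 at the low dose was -0.34 on that ratio and -0.032 on the series values, where Erlin1 was -0.19. Leaving out 1 array at a time, Abca1 ran from -0.066 to 0.15, -0.13 to 0.073 and -0.21 to 0.0068, Nr1h2 at the low dose from -0.076 to 0.076, and Nr1h3 from -0.0029 to 0.23 at the low and from -0.22 to 0.013 at the high dose. The cause was not tested. Signal over background limits what can be said of Abca1 and Abcg1.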
